A study of Mus musculus with 12 samples.

Results

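The 10 genes described here, Apoa1, Apoa4, Apob, Apoc3, Mttp, Dgat1, Dgat2, Fabp1, Fabp2 and Mogat2, act in the packaging of dietary fat by the absorptive cells of the gut. They were chosen by name, for their roles in making chylomicrons and carrying fatty acids, from 55421 gene identifiers in a table of RNA sequencing counts from mouse small intestine. All 10 were in the table and all 10 were among the 17394 genes tested. The table held 12 libraries, 4 in each of 3 groups. The WT group was labelled wild type, with neither a Cre recombinase nor a floxed allele in its label, at day 7. The Apc group carried VilCreER and Apc fl/fl, at day 4. The Apc Eif3h group carried VilCreER, Apc fl/fl and Eif3h fl/fl, at day 4. VilCreER is a Cre recombinase that tamoxifen activates and the villin promoter drives, so recombination is directed to gut epithelium, while the muscle, stromal and immune cells of the same tissue keep both genes. The treatment text gives all samples 2 injections of tamoxifen at 80 mg/kg, 24 h apart, and a harvest at 7 days, which goes against the day 4 labels. Genotype and day therefore cannot be told apart in the comparisons with WT, whereas Apc Eif3h and Apc were labelled with the same day. By sex, 3 of 4 samples were male in WT and in Apc, and 4 of 4 in Apc Eif3h. WT and Apc each hold both sexes and so more than 1 animal, but whether the 4 replicates of a group came from 4 animals is not in the labels, and part of the spread behind each p-value may be technical. The sources used here do not give diet or the stretch of gut taken.

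Dietary triglyceride is split in the gut lumen, taken up by enterocytes as fatty acids and monoacylglycerol, and rebuilt into triglyceride at the endoplasmic reticulum. There the microsomal triglyceride transfer protein loads it onto apolipoprotein B, which stays with the particle for its whole life, and the particle gains further apolipoproteins before it leaves the cell as a chylomicron and enters the lymph. In mice, enterocytes of the proximal and middle small intestine do most of this work, and the liver, which makes very low density lipoproteins, shares many of the genes. The Apc protein restrains Wnt signalling, which maintains the stem cells of the crypt, and Eif3h encodes a subunit of a translation initiation factor.

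Library totals were 10483112 to 21298301 counts. In the Apc Eif3h libraries Eif3h stood at 28.3, 43.1, 54.6 and 25.9 CPM (counts scaled to the same library total, with TMM factors), against 126 to 175 CPM in the other 8 libraries. The fit gave a log2 fold change of -2.13 against Apc (SE 0.19, adjusted p = 0.000405). Apc transcripts were 0.28 higher on the log2 scale in Apc than in WT (adjusted p = 0.0177), a count over all exons that does not isolate the deleted part. Apc Eif3h replicate 2 stood apart from the rest with 462 CPM of Ighm, a B cell gene, and Apc Eif3h replicate 3 had the highest Eif3h of its group.

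A table of RefSeq sequences (GRCm38.p6) held the start region of 6 of the 10 genes, namely Fabp2, Mttp, Fabp1, Apoa1, Apoa4 and Apob. The sequences of 4 genes that differed in their calls are shown, cut where the first annotated transcript of GENCODE release M21 begins. Differing calls do not show that the falls differed. Apoa1 and Apob were called lower in both comparisons with WT, Fabp2 in neither and Fabp1 only in Apc. All of them lie on the plus strand of GRCm38, and they span chr9:46228380-46228579 for Apoa1, chr12:7977427-7977647 for Apob, chr6:71199629-71199826 for Fabp1 and chr3:122894822-122895071 for Fabp2. Capitals mark matches to the motifs searched.
Apoa1: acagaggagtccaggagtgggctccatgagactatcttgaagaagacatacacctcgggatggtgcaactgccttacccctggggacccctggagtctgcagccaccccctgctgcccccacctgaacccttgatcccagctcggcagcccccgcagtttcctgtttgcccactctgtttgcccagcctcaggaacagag
Apob: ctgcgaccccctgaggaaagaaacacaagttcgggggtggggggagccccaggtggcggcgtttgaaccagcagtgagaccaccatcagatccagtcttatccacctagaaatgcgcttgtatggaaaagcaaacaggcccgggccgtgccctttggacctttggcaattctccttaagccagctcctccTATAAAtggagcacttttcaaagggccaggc
Fabp1: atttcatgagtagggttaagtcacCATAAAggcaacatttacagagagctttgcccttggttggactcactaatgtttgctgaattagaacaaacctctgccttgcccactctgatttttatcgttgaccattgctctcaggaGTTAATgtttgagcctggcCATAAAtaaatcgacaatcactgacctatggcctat
Fabp2: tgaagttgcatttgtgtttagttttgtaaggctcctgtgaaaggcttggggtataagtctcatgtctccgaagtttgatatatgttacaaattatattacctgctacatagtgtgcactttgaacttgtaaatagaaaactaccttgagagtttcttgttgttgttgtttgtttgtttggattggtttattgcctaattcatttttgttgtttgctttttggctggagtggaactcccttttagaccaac
The 250 bases before each RefSeq start were searched on both strands for 6 motifs, the TATA box TATAAA, 2 forms of the HNF4 core (CAAAGGTCA and CAAAGTCCA), the HNF1 site GTTAAT, the GATA site AGATAA and the CDX site TTTATG, none of which overlapped another match. Apob had TATAAA 60 to 55 bases before its RefSeq start. Fabp1 had GTTAAT at 107 to 102 bases, the CDX letters on the minus strand (CATAAA as printed) at 226 to 221 and at 88 to 83 bases, and TATAAA at 30 to 25 bases, past the end of the stretch shown. Apoa1, Apoa4, Fabp2 and Mttp had no match. Of 32851 mouse promoters of the same length, 12.4% held TATAAA, 6.43% GTTAAT, 10.8% TTTATG, 9.99% AGATAA, 0.426% CAAAGGTCA and 0.384% CAAAGTCCA. The matches describe the letters only.

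Of the 10 genes, 3 lie side by side on GRCm38 chromosome 9, Apoa1 at 46228580 to 46230466 (plus strand), Apoc3 at 46232933 to 46235636 (minus strand) and Apoa4 at 46240696 to 46243459 (plus strand), within 14880 bases. Dgat2 (chromosome 7, 99153658 to 99182719, minus strand) and Mogat2 (99219084 to 99238619, minus strand) are 36364 bases apart. Apob lies on chromosome 12 at 7977648 to 8016835 (plus strand), Dgat1 on chromosome 15 at 76502015 to 76511953 (minus strand), Fabp1 on chromosome 6 at 71199827 to 71205023 (plus strand), and Mttp and Fabp2 on chromosome 3 at 138089854 to 138144968 (minus strand) and 122895072 to 122899506 (plus strand). Whether the counting used strand is not given, but genes annotated on the opposite strand of Apoa4, Mttp, Fabp2 and Mogat2 held counts of at most 0.462% of the member's own.

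Against WT, Apc libraries held lower levels of 8 of the 10 genes, Apoa1, Apoa4, Apoc3, Apob, Mttp, Dgat1, Mogat2 and Fabp1, with falls of 1.81-fold for Apob to 3.64-fold for Apoc3 among the secreted and loading proteins, and of 1.63-fold for Mogat2 to 2.24-fold for Dgat1 among the rest. Dgat2 and Fabp2 did not pass the test, and 0 of 10 rose. The count of lower genes was 5 when libraries were scaled to 9 structural genes of the brush border, under which the values of Dgat2 and Fabp2 lay above 0. That scaling called 570 of all 17394 genes tested lower and 10199 higher. Calls are at an adjusted p below 0.05 in edgeR's quasi-likelihood test. With TMM scaling, 24.1% of all genes tested were called lower and 27.7% higher. Among the 786 genes at least as abundant as the least abundant member 50.0% were lower. The 8 of 10 is to be read against that last share. The median log2 fold change of the 10 was -1.01, against -0.0099 over all genes tested. Every Apc library lay below every WT library for 7 of the 10 genes, an arrangement that 22.0% of the genes tested had. This share and the median of all genes were not taken for the 786 abundant genes alone. In these bulk samples, fewer cells of a type and less RNA per cell cannot be told apart.

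**Figure D1:**
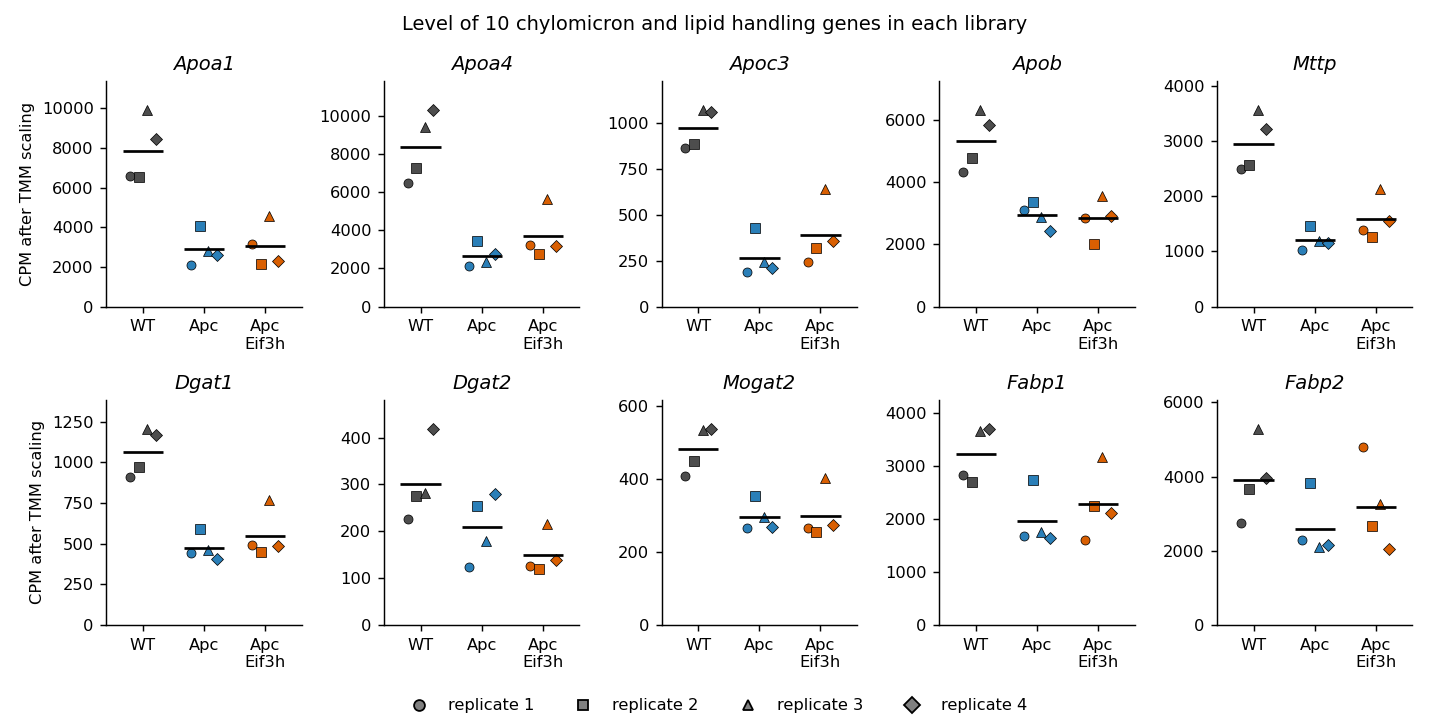
Level of each of the 10 genes in each library, in CPM after TMM scaling on linear axes that start at 0, by group, with a symbol for each replicate number and a bar at the mean of 4 libraries. For Apoc3 the Apc libraries run from 189 to 427 CPM and the WT libraries from 866 to 1069 CPM, while for Dgat2, Fabp1 and Fabp2 the 2 groups overlap.

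Apoc3, which encodes an inhibitor of lipoprotein lipase carried on triglyceride-rich particles, had the largest fold change of the 10 in Apc against WT. Its level was 866, 886, 1069 and 1063 CPM in WT replicates 1 to 4, 189, 427, 240.4 and 211 CPM in Apc replicates 1 to 4, and 244, 321, 639.8 and 355 CPM in Apc Eif3h replicates 1 to 4. Every library with floxed Apc was below every WT library, and Apc replicate 2 and Apc Eif3h replicate 3 were the highest of their groups. The log2 fold change of Apc against WT was -1.86 (SE 0.30, adjusted p = 0.000352), a 3.64-fold fall. The Apc Eif3h libraries were 0.55 above Apc on the log2 scale, with an interval at 95% of -0.091 to 1.19 (adjusted p = 0.284), and against WT the fall was 2.49-fold (log2 fold change -1.32, SE 0.30, adjusted p = 0.00247).

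Apoa4, an apolipoprotein that enterocytes secrete in large amounts on chylomicrons during fat absorption, was the most abundant of the 10 by counts in WT, where it ranked 4 among all genes. WT replicates 1 to 4 held 6490.1, 7257, 9423 and 10308 CPM, Apc replicates 2122, 3440.4, 2324 and 2752 CPM, and Apc Eif3h replicates 3230.4, 2779, 5674 and 3181 CPM. Neither floxed group reached the lowest WT library, and Apc Eif3h replicate 3 lay far above the other 3 of its group. The fall from WT to Apc was 3.15-fold (log2 fold change -1.65, SE 0.30, adjusted p = 0.000719). From WT to Apc Eif3h it was 2.25-fold (on the log2 scale -1.17, SE 0.30, adjusted p = 0.00483). Apc Eif3h differed from Apc by 0.48 (interval -0.15 to 1.12, adjusted p = 0.345).

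Apoa1 encodes the main protein of high density lipoproteins, which gut and liver both secrete. Its WT libraries held 6514 to 9887 CPM, its Apc libraries 2084 to 4065 CPM and its Apc Eif3h libraries 2125 to 4565 CPM. The floxed groups overlapped each other and neither overlapped WT. Apoa1 fell 2.73-fold in Apc (log2 fold change -1.45, SE 0.31, adjusted p = 0.00216) and 2.59-fold in Apc Eif3h (on the log2 scale -1.37, SE 0.31, adjusted p = 0.00254). Between the floxed groups the difference was 0.078 (interval -0.59 to 0.74, adjusted p = 0.909), and its sign turned without Apc replicate 1 (-0.049) or Apc Eif3h replicate 3 (-0.16).

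Apob encodes the structural protein of the particle itself. It stood at 4317, 4753, 6295 and 5832 CPM in WT, at 3109.7, 3347, 2864 and 2422 CPM in Apc and at 2845, 2006, 3555 and 2899 CPM in Apc Eif3h, replicates 1 to 4 in each. The lowest WT library was above all 8 floxed libraries. The fall was 1.81-fold in Apc (log2 fold change -0.85, SE 0.23, adjusted p = 0.00797) and 1.88-fold in Apc Eif3h (on the log2 scale -0.91, SE 0.23, adjusted p = 0.00489). Apc Eif3h differed from Apc by -0.055 (interval -0.55 to 0.44, adjusted p = 0.915), above 0 without Apc replicate 2 (0.015) or Apc Eif3h replicate 2 (0.08). Enterocytes edit Apob transcripts to give the short form of the protein found in chylomicrons, and counts per gene do not separate edited from unedited transcripts.

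Mttp encodes the large subunit of the transfer protein that lipidates apolipoprotein B. Its WT replicates 1 to 4 were at 2487, 2557, 3551 and 3208 CPM, its Apc replicates at 1025, 1453, 1190.1 and 1154 CPM and its Apc Eif3h replicates at 1378, 1266, 2124 and 1553 CPM. The 3 groups stood in the order WT, Apc Eif3h, Apc by mean, with the floxed groups overlapping. Mttp fell 2.45-fold in Apc (log2 fold change -1.29, SE 0.20, adjusted p = 0.000275) and 1.87-fold in Apc Eif3h (on the log2 scale -0.90, SE 0.20, adjusted p = 0.00221). Its difference between the floxed groups, 0.39 (interval -0.043 to 0.82), had the smallest p of the 10 genes, 0.0733 before and 0.26 after adjustment over all genes.

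Ratios of the CPM of 4 of these genes to that of Apob within a library were examined after the levels had been seen. No choice of library scaling can change them, and all 4 share Apob as denominator. No difference between groups passed the adjusted test, which full separation of a single ratio could not pass on its own. Apoa1 over Apob was 1.48 ± 0.0877 in WT (mean ± SD, n = 4), 0.981 ± 0.231 in Apc and 1.06 ± 0.201 in Apc Eif3h. Apoc3 over Apob was 0.185 ± 0.0128, 0.0898 ± 0.0277 and 0.137 ± 0.0416. Both ratios were lower in each Apc library than in any WT library, and so was Apoa4 over Apob, at 1.57 ± 0.13 in WT and 0.915 ± 0.205 in Apc (1.30 ± 0.233 in Apc Eif3h). Mttp over Apob was 0.557 ± 0.0165 in WT and 0.562 ± 0.0652 in Apc Eif3h but 0.414 ± 0.0617 in Apc, with all 4 Apc libraries below all 8 others. In two-sided exact permutation tests on log2 ratios, the 4 ratios each gave p = 0.0286 for Apc against WT, the smallest that 4 against 4 libraries allow. So did Apoa1 over Apob for Apc Eif3h against WT and Mttp over Apob for Apc Eif3h against Apc. Adjusted over the 12 ratio comparisons these exact permutation values were 0.0571, so none passed 0.05. These misses do not show that the ratios were alike. The Mttp ratio differed between Apc Eif3h and Apc by 0.45 on the log2 scale (0.34 to 0.52 with any 1 library left out), while Apc Eif3h against WT gave 0.0061 (exact permutation p = 0.971). The comparisons of Apc and Apc Eif3h with WT share the WT libraries.

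**Figure D2:**
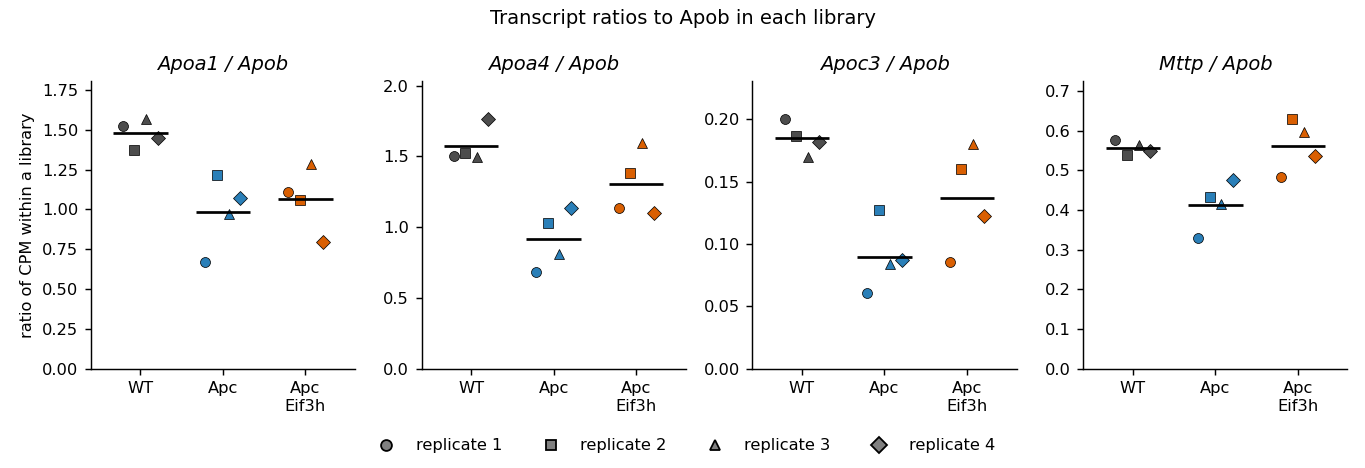
Ratio of the CPM of Apoa1, Apoa4, Apoc3 and Mttp to that of Apob in each library, on linear axes that start at 0, with a symbol for each replicate number and a bar at the group mean. In all 4 panels the Apc libraries lie below the WT libraries, and for Mttp the Apc libraries (0.33 to 0.476) also lie below the Apc Eif3h libraries (0.484 to 0.631).

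Of the 10 genes, 3 rebuild triglyceride. Mogat2 encodes the enzyme that adds a fatty acid to absorbed monoacylglycerol, the main route in the gut after a meal. Its libraries held 409 to 538 CPM in WT, 266 to 355 CPM in Apc and 256 to 403 CPM in Apc Eif3h. It fell 1.63-fold in Apc (log2 fold change -0.70, SE 0.16, adjusted p = 0.0026) and 1.61-fold in Apc Eif3h (on the log2 scale -0.69, SE 0.16, adjusted p = 0.00257), with no overlap with WT in either group. Between the floxed groups the value was 0.017 (interval -0.32 to 0.36), close enough to 0 that its sign turned with the scaling (-0.022 with library totals, -0.1 with 11 epithelial genes).

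Dgat1 and Dgat2 encode unrelated enzymes for the last step, from diacylglycerol to triglyceride. Dgat1 was at 909, 974, 1206 and 1168 CPM in WT replicates 1 to 4, 443, 592, 462 and 404 CPM in the Apc replicates and 490.0, 452, 766 and 486 CPM in the Apc Eif3h replicates. All 8 floxed libraries were below WT, with Apc Eif3h replicate 3 the nearest. Its fall was 2.24-fold in Apc (log2 fold change -1.16, SE 0.18, adjusted p = 0.000282) and 1.94-fold in Apc Eif3h (on the log2 scale -0.96, SE 0.18, adjusted p = 0.000797), and the floxed groups differed by 0.21 (interval -0.19 to 0.60, adjusted p = 0.533).

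Dgat2, the least abundant of the 10, was called lower against WT in Apc Eif3h but not in Apc. It was at 227, 275, 281 and 418 CPM in WT, 123, 253, 179.5 and 280.1 CPM in Apc and 125, 120.0, 215 and 138 CPM in Apc Eif3h. Apc replicates 2 and 4 lay within the WT range, replicates 1 and 3 below it, and all 4 Apc Eif3h libraries below it. Apc against WT gave -0.52 (interval -1.10 to 0.058, adjusted p = 0.118), which did not pass the test. Apc Eif3h against WT gave a 2.01-fold fall (log2 fold change -1.01, SE 0.27, adjusted p = 0.00675). The step from Apc to Apc Eif3h was -0.48 (interval -1.06 to 0.10, adjusted p = 0.299), so the 2 comparisons with WT are not shown to differ.

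Fabp1 and Fabp2 encode small cytosolic proteins that bind fatty acids inside the enterocyte, Fabp1 also in the liver. Fabp1 was at 2825, 2696, 3662 and 3702 CPM in WT, 1684, 2746, 1751 and 1638 CPM in Apc and 1613, 2252, 3178 and 2106 CPM in Apc Eif3h, replicates 1 to 4. Apc replicate 2 reached the WT range and the other 3 Apc libraries stayed under it. Fabp1 fell 1.65-fold in Apc (log2 fold change -0.72, SE 0.25, adjusted p = 0.0265). That call was lost without WT replicate 3 (adjusted p = 0.0598), WT replicate 4 (0.0659), Apc replicate 1 (0.0733), Apc replicate 3 (0.0698) or Apc replicate 4 (0.0752), and with library totals (0.0599), male libraries only (0.148), scaling to the epithelial genes (0.0724) or to the brush border genes (0.844). In Apc Eif3h it differed from WT by -0.49 (interval -1.03 to 0.038, adjusted p = 0.102). This passed the test without Apc Eif3h replicate 3 (-0.68, adjusted p = 0.0259) and with DESeq2 (-0.50, adjusted p = 0.0449).

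Fabp2, the intestinal form, was at 2739, 3663, 5286 and 3976 CPM in WT, 2304, 3821, 2091 and 2154 CPM in Apc and 4806, 2658, 3258 and 2044 CPM in Apc Eif3h. Apc and Apc Eif3h each overlapped WT, and Apc Eif3h replicate 1 was above 3 of the 4 WT libraries. No comparison passed the test: Apc against WT gave -0.59 (interval -1.27 to 0.076, adjusted p = 0.124), Apc Eif3h against WT -0.30 (interval -0.96 to 0.37, adjusted p = 0.431) and Apc Eif3h against Apc 0.30 (interval -0.37 to 0.97, adjusted p = 0.604). Without Apc replicate 2 the first of these passed (-0.84, adjusted p = 0.0411). The intervals of the 2 comparisons with WT leave room for a fall as large as that of Apob.

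Loss of Eif3h on top of Apc left all 10 genes uncalled. In Apc Eif3h against Apc, 0 of 10 were lower and 0 of 10 higher in edgeR, 0 had an unadjusted p under 0.05, and DESeq2 also called 0, where 2.78% of all genes tested were called lower and 4.27% higher (1.27% lower among the 786 abundant genes). The libraries of the 2 groups overlapped for all 10 genes. Of all genes tested, 7.26% had every Apc Eif3h library below every Apc library and 7.89% had the reverse. With shares this small, counts of 0 of 10 do not set these genes apart from the rest. The median of the 10 log2 fold changes was 0.22, against -0.0019 over all genes. Values ran from -0.48 for Dgat2 to 0.55 for Apoc3. These misses do not show that levels were alike, since the upper ends of the intervals reached 1.19 for Apoc3 and 1.12 for Apoa4 on the log2 scale. Leaving out the B cell rich Apc Eif3h replicate 2, or Apc Eif3h replicate 3, also gave 0 calls.

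**Figure D3:**
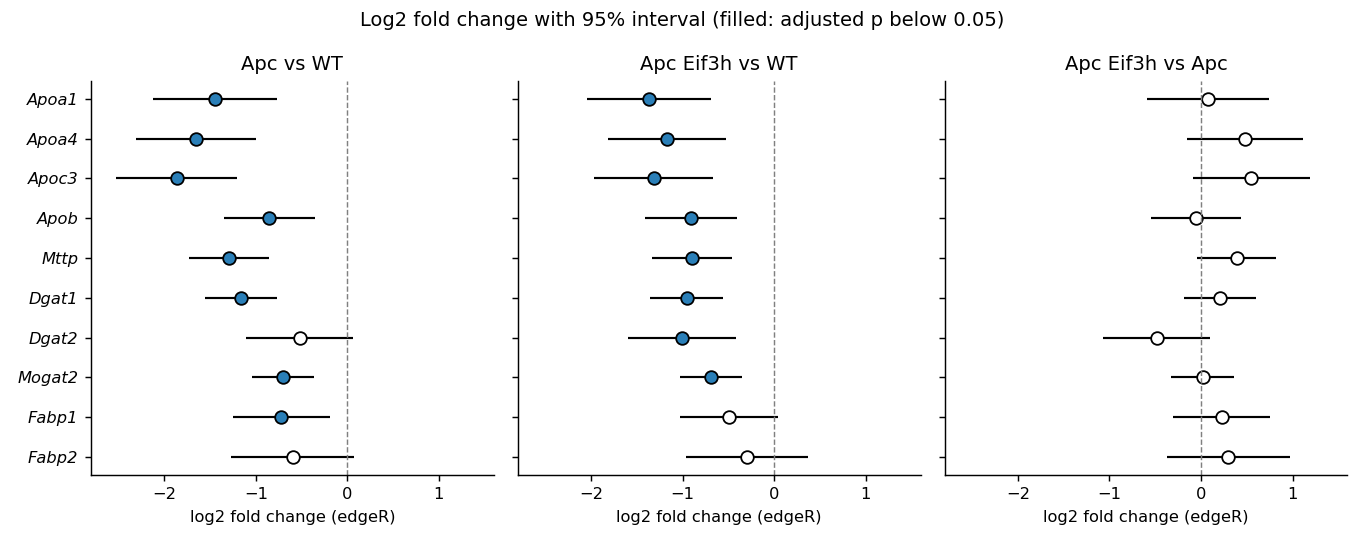
Log2 fold change of each gene from edgeR in the 3 comparisons, with bars for the interval at 95%, filled where the adjusted p is below 0.05. Of the 10 genes, 8 are filled in Apc against WT, 8 in Apc Eif3h against WT and 0 in Apc Eif3h against Apc. Scaled to brush border genes the counts are 5, 3 and 0, and the values of Dgat2 and Fabp2 (Apc against WT) and of Fabp1, Fabp2 and Mogat2 (Apc Eif3h against WT) lie above 0. That scaling called 570, 584 and 41 of all 17394 genes tested lower.

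Apc Eif3h against WT called 8 of 10 lower and 0 higher (background 28.1% lower and 29.8% higher over all genes, 47.5% lower over the 786 abundant ones), with Dgat2 in place of Fabp1. The median log2 fold change was -0.93, against -0.029 over all genes, and the libraries did not overlap for 8 of the 10, against 20.7% of all genes. Neither of these backgrounds was taken for the 786 abundant genes alone. Scaled to the brush border genes, 3 of 10 were lower, namely Apoa1, Apoa4 and Apoc3. That scaling called 584 of all 17394 genes tested lower and 10266 higher. This comparison shares its WT libraries with that of Apc against WT.

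Together the 10 genes took 3.09% ± 0.435 of all counts in WT (mean ± SD, n = 4), 1.64% ± 0.315 in Apc and 1.86% ± 0.377 in Apc Eif3h. The WT libraries ran from 2.58% to 3.54%, the Apc libraries from 1.43% to 2.11% and the Apc Eif3h libraries from 1.54% to 2.37%. No floxed library reached the WT range, and the highest of each group were Apc replicate 2 and Apc Eif3h replicate 3. Apoa4 took the largest share in WT (0.751% ± 0.128) and in Apc Eif3h (0.381% ± 0.115), and Apob in Apc (0.311% ± 0.0368), where it was within the spread of Apoa1 (0.304% ± 0.0818).

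**Figure D4:**
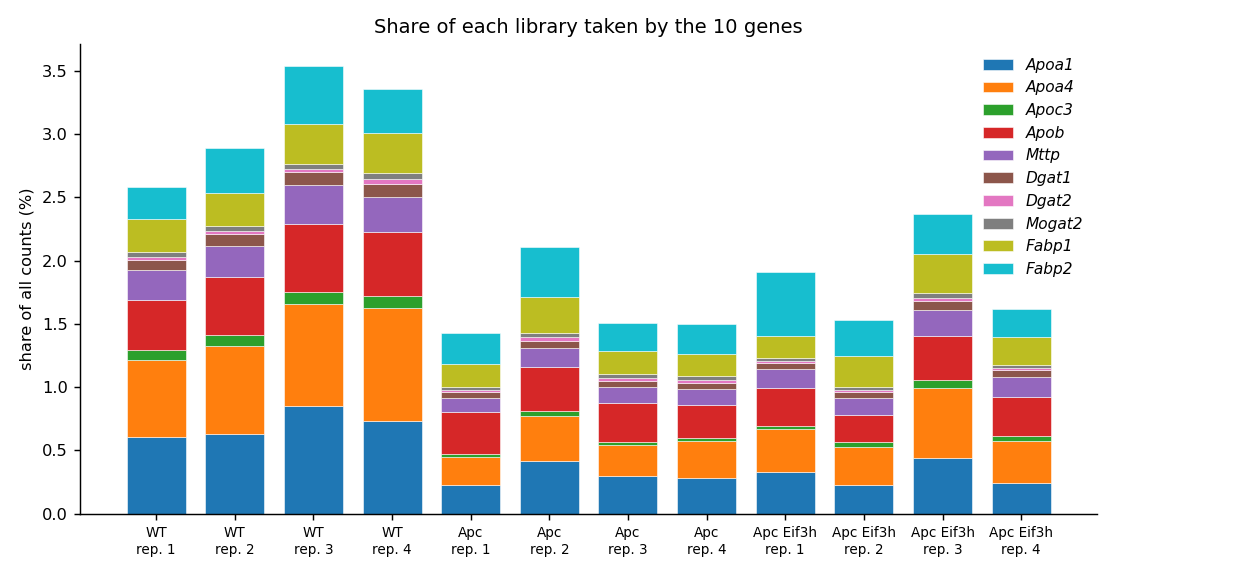
Share of all counts of each library taken by the 10 genes, in percent on an axis from 0, stacked by gene, with 1 bar for each of the 12 libraries. The WT bars reach 2.58% to 3.54% and the bars of the other groups at most 2.37%.

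Levels of different genes were compared per kilobase of exon. In WT the order of mean CPM per kilobase was Apoa1 (6358 ± 1314, mean ± SD, n = 4), Fabp1 (5825 ± 967), Apoa4 (4611 ± 987), Fabp2 (4058 ± 1092), Apoc3 (957 ± 108), Mttp (475 ± 83.0), Apob (380.3 ± 66.0), Dgat1 (348 ± 47.4), Mogat2 (263 ± 34.8) and Dgat2 (97.4 ± 26.7). Neighbours in this order overlapped between libraries among the first 4 genes and among Mttp, Apob and Dgat1, and were separate elsewhere. In both floxed groups the fatty acid binding proteins headed the order, with Fabp1 at 3535 ± 957 CPM per kilobase in Apc and 4136 ± 1183 in Apc Eif3h, and Fabp2 at 2687 ± 854 and 3307 ± 1228. Apoa1 came next at 2330.1 ± 682 and 2459 ± 899, and its libraries overlapped those of Fabp2. Within libraries, Fabp1 per kilobase exceeded Apoa1 in 0 of 4 WT libraries, 4 of 4 Apc libraries and 4 of 4 Apc Eif3h libraries. Dgat2 was last in all 3 groups.

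Markers of the enterocyte outside lipid handling moved in the same comparisons. Over all genes tested, 24.1% were called lower and 27.7% higher in Apc against WT, with 50.0% lower among the 786 abundant genes. In Apc Eif3h against WT the shares over all genes were 28.1% and 29.8%. Of 22 such genes (digestive enzymes, transporters and structural genes, such as Sis, Slc5a1 and Vil1), 16 fell and 0 rose in Apc against WT, with a median log2 fold change of -0.86, and their summed level was 33281 to 44649 CPM in WT, 16558 to 23723 CPM in Apc and 17279 to 28253 CPM in Apc Eif3h. All 9 structural genes of the brush border, 4 of which are also among the 22, fell, with a median of -0.70 and sums of 7891 to 10479 CPM in WT, 5196 to 6617 CPM in Apc and 4482 to 7209 CPM in Apc Eif3h. In contrast 9 of 9 crypt stem and progenitor markers rose, with a median of 2.30. Among 11 epithelial genes shared by all lineages, 3 fell and 2 rose, with a median of -0.19. Genes of other cell types in the tissue also moved. Of 7 T and B cell markers tested 4 fell and 0 rose in Apc (median -1.56), among them Gzma (-1.75) and Cd3g (-1.71), and 4 fell and 1 rose in Apc Eif3h, with summed levels of 119 to 399 CPM in WT, 61.9 to 91.3 CPM in Apc and 60.2 to 802 CPM in Apc Eif3h. Of 11 stromal and vascular markers 5 fell and 1, Prox1 (2.51), rose in Apc (median -0.36). In Apc Eif3h 8 fell and 1 rose (median -0.73). The sums were 1777 to 2185 CPM in WT, 1383 to 1645 CPM in Apc and 1230 to 1496 CPM in Apc Eif3h. Which cells the Prox1 counts came from was not tested. The part of these shifts in the lower lipid genes was not tested.

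Scaling libraries to such genes gave the size of each change relative to them. Scaling to the 11 epithelial genes moved the median of all genes to 0.23 in Apc against WT. Under it 7 of the 10 members were lower in Apc and 8 in Apc Eif3h. Of all 17394 genes tested, it called 1857 lower in Apc and 3049 in Apc Eif3h. Scaling to the 9 brush border genes moved the median of all genes to 0.67 (Apc) and 0.71 (Apc Eif3h). Under it Apoa1, Apoa4, Apoc3, Mttp and Dgat1 were lower in Apc and Apoa1, Apoa4 and Apoc3 in Apc Eif3h. Of all 17394 genes tested, this scaling called 570 lower in Apc and 584 in Apc Eif3h. In that scale Apoc3 was at -1.20 in Apc, Apoa4 at -0.96 and Apoa1 at -0.77, while Apob was at -0.15 and Mogat2 at -0.013. In Apc Eif3h the values were -0.63, -0.46 and -0.66 for Apoc3, Apoa4 and Apoa1, -0.18 for Apob and 0.034 for Mogat2. The 3 apolipoproteins of the chromosome 9 cluster were lower relative to the brush border genes in both groups, and Apob, Mogat2, Fabp1, Fabp2 and Dgat2 had no call in either.

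**Figure D5:**
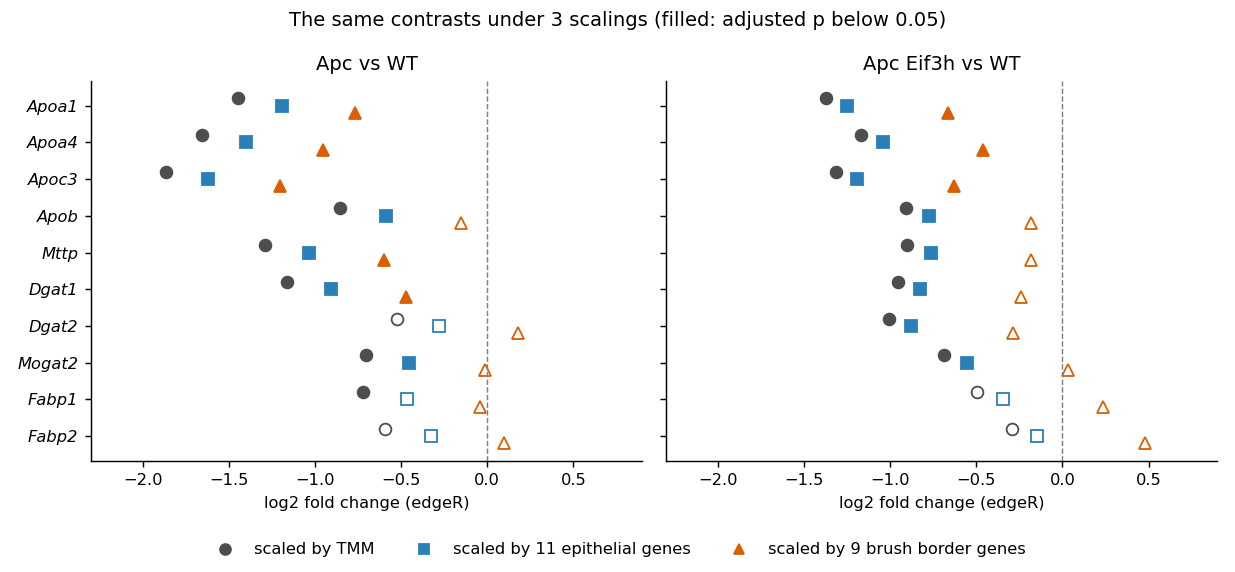
Log2 fold change of each gene against WT under 3 scalings of the libraries, TMM, 11 epithelial genes and 9 brush border genes, filled where the adjusted p is below 0.05. Under the brush border scaling 5 genes are filled in Apc and 3 in Apc Eif3h, and Dgat2 and Fabp2 in Apc and Fabp1, Fabp2 and Mogat2 in Apc Eif3h lie above 0. Of all 17394 genes tested, that scaling called 570 and 584 lower.

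The genes around these 10 in the pathway were taken from lists by role. Their counts in Apc against WT are to be read against 24.1% lower and 27.7% higher over all genes tested. Among the 786 genes at least as abundant as the least abundant member, 50.0% were lower. For uptake at the brush border, 6 of 9 genes fell and 1 rose in Apc against WT (median -1.10), while under brush border scaling 4 fell and 3 rose. Over all 17394 genes tested, that scaling called 570 lower and 10199 higher in Apc against WT. Its counts for this and the next lists are to be read against that. Slc27a2, a fatty acid transporter and acyl-CoA synthetase, was at 158 to 190.5 CPM in WT and 27.2 to 68.7 CPM in Apc (log2 fold change -1.81, adjusted p = 0.000533). Slc27a4, the related gene most often tied to the gut, fell from 935 ± 191 to 361 ± 83.4 CPM (log2 fold change -1.37, adjusted p = 0.000714). Cd36, a fatty acid receptor, fell by 1.10 on the log2 scale (adjusted p = 0.00166). Got2, a mitochondrial aminotransferase also described as a fatty acid binding protein of the plasma membrane, was the gene that rose (0.58, adjusted p = 0.000721). With brush border scaling the call of Cd36 was lost (adjusted p = 0.0624).

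For particle assembly, Apob editing and export from the endoplasmic reticulum, 12 of 14 genes fell and 0 rose (median -0.76), whereas under brush border scaling 3 fell and 4 rose. Apobec1, the enzyme that edits Apob transcripts, was at 82.5 ± 8.53 CPM in WT and 31.6 ± 4.49 CPM in Apc (log2 fold change -1.38, adjusted p = 3.26e-05). Rbm47, an RNA-binding cofactor of that editing, fell by 0.74 (adjusted p = 0.000267). Sar1b, a small GTPase of the coat that carries chylomicrons out of the endoplasmic reticulum, stood at 243 to 284 CPM in WT and 122 to 175 CPM in Apc (log2 fold change -0.82, adjusted p = 0.000378). Mia3, a cargo receptor for large particles, fell by 0.51 (adjusted p = 0.000543). With brush border scaling the calls of Rbm47 (adjusted p = 0.78) and Sar1b (0.311) were lost and the value of Mia3 was 0.18, whose call was also lost with epithelial scaling (0.0615). Sar1a and Mia2 were the 2 not called (-0.079 and -0.34).

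Fatty acid activation and the glycerol phosphate route, by which triglyceride is built without monoacylglycerol, was mixed. Of 14 genes tested 7 fell and 3 rose (median -0.38), and under brush border scaling 0 fell and 8 rose. That scaling called 10199 of all 17394 genes tested higher, so a rise under it does not set these genes apart. Gpat3, a glycerol phosphate acyltransferase of the endoplasmic reticulum, fell by 0.98 (adjusted p = 0.000451), whereas its mitochondrial relative Gpam rose by 0.70 (adjusted p = 0.00185). Acsl1, an acyl-CoA synthetase, fell by 0.84 (adjusted p = 0.000986) and Acsl3, another of that family, rose by 0.90 (adjusted p = 0.00581). Gpat4 was the other gene that rose (0.32, adjusted p = 0.0471), a call lost without WT replicate 2, 3 or 4 or Apc replicate 1 or 4 (adjusted p 0.0721 to 0.14), and with RLE or upper quartile factors, no filter, sex as a covariate, male libraries or DESeq2 (0.0517 to 0.14). With brush border scaling the calls of Gpat3 and Acsl1 were lost (adjusted p 0.0669 and 0.341).

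For lipid droplets and their breakdown, 6 of 10 genes fell and 1 rose (median -0.51), and under brush border scaling 1 fell and 3 rose. Lipe, hormone-sensitive lipase, fell from 141 ± 14.9 to 47.3 ± 7.90 CPM (log2 fold change -1.57, adjusted p = 7.15e-05). Cideb, a droplet protein that helps to lipidate apolipoprotein B particles, fell by 0.92 (adjusted p = 0.000906). Hilpda, an inhibitor of triglyceride lipase, rose by 0.60 (adjusted p = 0.0426), which was lost without WT replicate 2, 3 or 4 or Apc replicate 1 or 4 (adjusted p 0.0815 to 0.12), and with RLE or upper quartile factors, no filter, sex as a covariate or male libraries (0.0504 to 0.192). That of Cideb was lost with brush border scaling (adjusted p = 0.102). Of the 8 other apolipoproteins 5 were tested, and 3 of these fell and 0 rose (median -0.88; under brush border scaling 2 fell and 1 rose). They were Apol7a (-1.26), Apoh (-1.52, at 1.01 CPM or less) and Apoe (-0.88, adjusted p = 0.017, 0.0584 without WT replicate 1), which macrophages also make. The call of Apoe was also lost with library totals (adjusted p = 0.0689), male libraries (0.0985), epithelial scaling (0.107) and brush border scaling (0.563). The summed level of 8 macrophage markers was 284 to 786 CPM in WT, 254 to 307 CPM in Apc and 223 to 441 CPM in Apc Eif3h, and its part in the fall of Apoe was not tested. Apoa5, the next apolipoprotein of the chromosome 9 cluster, was at 0.888 CPM or less in every library and was not tested.

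Among 18 transcription factors linked to enterocyte lipid genes, 11 fell and 1 rose in Apc against WT (median -0.50), and under brush border scaling 3 fell and 5 rose. The shares over all genes tested were 24.1% lower and 27.7% higher without that scaling. Nr1h4, the bile acid receptor, fell from 41.2 ± 4.86 to 19.0 ± 3.63 CPM (log2 fold change -1.12, adjusted p = 0.000198). Maf, a basic leucine zipper factor, fell by 1.06 (adjusted p = 0.00056) and Nr1h3, a receptor for oxysterols, by 0.68 (adjusted p = 0.0011). With brush border scaling the call of Nr1h3 was lost (log2 fold change 2.97e-05). Srebf2, which drives sterol synthesis genes, was the 1 that rose (0.69, adjusted p = 0.000144).

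Between Apc Eif3h and Apc, 2 of the 70 genes tested in these 6 lists fell and 1 rose, where 2.78% of all genes tested were called lower and 4.27% higher. Lpin1, a phosphatidate phosphatase of the glycerol phosphate route, fell from 13.6 ± 1.34 to 6.75 ± 0.632 CPM (log2 fold change -1.01, SE 0.14, adjusted p = 0.00266), with no overlap between the libraries (12.3 to 15.3 and 6.07 to 7.36 CPM). That call was lost with brush border scaling (-0.97, adjusted p = 0.0891). Gpat4 rose by 0.46 (adjusted p = 0.0455), a call lost without Apc replicate 1, 2 or 3 or Apc Eif3h replicate 1, 2 or 4 (0.0731 to 0.139), and with library totals, upper quartile factors, no filter, sex as a covariate, male libraries, epithelial or brush border scaling (0.0516 to 0.331). Mgll, a monoacylglycerol lipase, fell by 0.35 (adjusted p = 0.0386), a call lost without Apc replicate 2, 3 or 4 or any 1 Apc Eif3h library (0.0597 to 0.119), and with the replicate block (0.0709), library totals, no filter, the 2 groups alone, epithelial or brush border scaling (0.0524 to 0.597). No gene of uptake (9 tested), assembly (14), other apolipoproteins (5) or transcription factors (18) was called, nor any of the 22 enterocyte markers. Of the 9 crypt markers 2 fell, Lgr5 (-1.19, adjusted p = 0.00974) and Smoc2 (-0.63, adjusted p = 0.00171).

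In Apc Eif3h against WT, which shares its control libraries with the comparison above, uptake had 6 lower and 1 higher, activation 8 and 2, assembly 11 and 0, other apolipoproteins 2 and 0, droplets 7 and 2, and transcription factors 12 and 1. Over all genes tested 28.1% were lower and 29.8% higher, and 47.5% were lower among the 786 abundant ones. Under brush border scaling the lower and higher counts were 6 and 1, 1 and 6, 2 and 4, 1 and 2, 1 and 3, and 4 and 7. That scaling called 584 of all 17394 genes tested lower and 10266 higher in this comparison. The 2 droplet genes that rose were Hilpda (1.19, adjusted p = 0.00072) and Fitm2 (0.49, adjusted p = 0.00166), which encodes a protein for droplet formation.

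Liver and fat also make or store lipoprotein lipids. The hepatocyte genes Alb, Fgb and Ahsg reached at most 1.39, 0.157 and 0.267 CPM in any library, and Fgb was at 0 in WT and Apc Eif3h. The sum of the 11 hepatocyte markers, 499 to 826 CPM in WT, 1252 to 1686 CPM in Apc and 1025 to 1504 CPM in Apc Eif3h, was mostly Cps1, which gut epithelium also expresses. The 8 adipocyte markers summed to 284 to 689 CPM in WT, 92.1 to 201 CPM in Apc and 89.7 to 147 CPM in Apc Eif3h, and in every library but WT replicate 1 most of this was Lipe and Cidec, which the droplet list also holds. The other 6 markers summed to 441 CPM in WT replicate 1, 75.1 CPM in WT replicate 2 and at most 21.2 CPM in WT replicates 3 and 4, to 13.4 to 85.5 CPM in Apc and to 11.2 to 15.0 CPM in Apc Eif3h. WT replicate 1 was highest, and its Adipoq was 35.3 CPM. Lipe was at 121 CPM or more in every WT library and at 65.2 CPM or less in every floxed library. Of 8 genes with a proximal or distal bias along the small intestine 7 were tested, and 3 fell and 2 rose in each comparison with WT, in no common direction. The shares of all genes tested called lower and higher were 24.1% and 27.7% in Apc, and 28.1% and 29.8% in Apc Eif3h. Of the proximal genes, Gata4 fell (-0.40 in Apc, -0.31 in Apc Eif3h) and Slc40a1, an iron exporter, rose (3.33 and 3.01). Of the distal genes, the bile acid transporter Slc10a2 rose (2.43 and 3.55, from 0.62 ± 0.166 CPM in WT), and Slc51a (-1.46 and -1.47) and Slc51b (-1.99 and -2.02), which export bile acids, fell. Fabp6, which marks the distal ileum, was at 0.602 CPM or less and was not tested. Their part in the levels of the 10 genes was not tested.

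The high and low libraries of a group were largely shared by the 10 genes. Apc replicate 2 had the highest level of its group for 9 of 10 genes and Apc Eif3h replicate 3 for 9 of 10, whereas WT replicate 1 had the lowest of its group for 8 and Apc Eif3h replicate 2 for 7. The exceptions at the top were Dgat2, highest in Apc replicate 4, and Fabp2, highest in Apc Eif3h replicate 1. The same 2 high libraries had the highest sums of enterocyte markers in their groups, 23723 and 28253 CPM, and Apc Eif3h replicate 2 the lowest in its group, 17279 CPM. The part of these sums in the levels of the 10 genes was not tested. Over the 12 libraries, which share the group difference, the Pearson r of each gene's log2 CPM with the mean profile of the 10, of which it is itself a part, was 0.99 for Dgat1, 0.986 for Mogat2, 0.985 for Apoa4, 0.985 for Apoa1, 0.979 for Mttp, 0.968 for Apoc3, 0.932 for Apob, 0.912 for Fabp1, 0.777 for Dgat2 and 0.682 for Fabp2. Among 14081 other genes with a mean log2 CPM of at least 1, the 6 nearest to that profile were Ccndbp1 (r = 0.993), Acbd4 (0.989), Pepd (0.988), Gipc2 (0.988), Sar1b (0.988) and Rab4a (0.987). Sar1b is the export GTPase described above, and Acbd4 encodes a protein with an acyl-CoA binding domain.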

How the data were processed

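RNA from small intestine was sequenced in 12 libraries, and the authors deposited whole-number counts per Ensembl gene. Per the submitters' processing notes, FastQC 0.11.8, Trim Galore 0.6.4, HISAT2 2.1.0, featureCounts 1.6.4 and GRCm38 were used. The sources used here do not give the gene annotation, the strand setting or the handling of reads with several positions. Symbols, positions and exon lengths came from GENCODE release M21, which held 55154 of 55421 identifiers and lacked 267. Groups and replicate numbers came from the labels.

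Counts were fitted in edgeR 4.0.16 (R 4.3.3, limma 3.58.1), with filterByExpr by group (17394 genes kept), TMM scaling, 1 mean per group over 12 libraries and the quasi-likelihood test. Each adjusted p of this main fit is Benjamini-Hochberg adjusted over the 17394 genes, with calls below 0.05. Those of an alternative are adjusted over the genes which that alternative tested, and those of the ratios over the 12 ratio comparisons. Log2 CPM used a prior count of 2. The script was tested on simulated data. Alternatives were DESeq2 1.42.0, other scalings, no filter, sex as a covariate, male libraries, the 2 groups alone, a replicate block and each library left out. The ratios to Apob and their repeats without each library were added after the levels were seen.

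The 10 genes and all lists were chosen with earlier results of these data known. Genes named are the 10 members, Eif3h and Apc, up to 4 called genes with the smallest p per list and comparison, members of a list where 5 or fewer are counted, defining markers of other cells, and the 6 genes most like the members' mean profile. Library totals of 10483112 to 21298301 counts gave each of the 10 genes at least 120.0 CPM in every library, so counting error is small beside the spread between libraries.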

Additional observations from a re-analysis of the deposited data

Results flagged for a closer look

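Of 33 groups of 4 values checked, 5 had 1 library set apart from the other 3 by more than Dixon's 95% critical value, which chance gives in about 1 of 20 groups. All 5 were the highest library of their group. Apc Eif3h replicate 3 was apart for Apoa4 (5674 CPM, others 2779 to 3230.4 CPM), for Dgat1 (766 CPM, others 452 to 490.0 CPM) and for Mogat2 (403 CPM, others 256 to 274 CPM). Apc replicate 2 was apart for Fabp1 (2746 CPM, others 1638 to 1751 CPM) and for Fabp2 (3821 CPM, others 2091 to 2304 CPM). Without Apc Eif3h replicate 3 the members called were 0 in Apc Eif3h against Apc, and Fabp1 passed the test against WT. Without Apc replicate 2, Fabp2 passed the test in Apc against WT.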

How the results depend on the processing

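Counts of members called moved by over 1.5 times only with scaling to the brush border genes, which gave 5 lower in Apc against WT and 3 in Apc Eif3h against WT in place of 8 and 8. That scaling also turned signs, to 0.18 for Dgat2, 0.095 for Fabp2, 0.19 for Agpat1, 0.25 for Mgll, 0.18 for Mia3 and 2.97e-05 for Nr1h3 in Apc, and to 0.23 for Fabp1, 0.48 for Fabp2, 0.034 for Mogat2 and 0.25 for Mia3 in Apc Eif3h. Over all genes it called 10199 higher and 570 lower in Apc against WT, where TMM called 4820 and 4192, library totals 6817 and 2393 (median 0.22) and epithelial scaling 5792 and 1857. In Apc Eif3h against WT the pairs were 10266 and 584 (brush border), 5177 and 4882 (TMM), 6605 and 3175 (library totals, median 0.17), 5185 and 3049 (epithelial, median 0.11) and 4578 and 5742 (upper quartile, median -0.11). In Apc Eif3h against Apc, 0 members were called under every alternative run, and over all genes the higher and lower calls were 743 and 483 with TMM, 485 and 488 with library totals, 74 and 285 with epithelial scaling (median -0.10) and 21 and 41 with brush border scaling. They were 511 and 306 without the filter, 400 and 259 in male libraries and 242 and 164 without Apc replicate 3. Small values changed sign there: Mogat2 was -0.022 with library totals, -0.0064 with upper quartile factors, -0.0301 in male libraries and -0.1 with epithelial scaling, and Apoa1 was -0.049 in male libraries and -0.059 with epithelial scaling. With 1 library left out, Apoa1 ran from -0.16 to 0.29, Apob from -0.16 to 0.0796 and Mogat2 from -0.14 to 0.12, and members called lower from 7 to 9 in Apc against WT and 8 to 9 in Apc Eif3h against WT. The cause of these changes was not tested. Of the values of the 10 genes under alternatives, 534 kept sign and call, 15 lost a call, 3 gained one and 18 changed sign. For the other named genes 948 kept both, 73 lost a call and 5 changed sign. With a replicate block the members called lower were 8, 0 and 8, unchanged. Among the other named genes 1 call was lost (Mgll in Apc Eif3h against Apc, adjusted p = 0.0709). Same-numbered libraries correlated at -0.145 to 0.313, and 5 of 12 correlated best with their own number. Whether the numbers pair the samples is not in the labels, and these values do not settle it.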
